A study of Hordeum vulgare with 10 samples.

Results

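Barley roots (*Hordeum vulgare* cv Golden Promise, wild type) that had been treated with a lipid extract of the root endophyte *Serendipita indica* were compared with solvent control roots at 2 h post treatment (hpt), gene class by gene class, to describe the early transcriptional response to the extract. The comparison holds 7 of the 10 RNA-Seq libraries: 4 from *S. indica* lipid-treated roots (final dilution of the extract 1 : 160, v/v) and 3 from solvent control roots, both in methanol at a final 1 : 40 (v/v). The other 3 libraries come from roots treated with ergosterol (250 nM) in the same solvent. The tissue was cut into 5-mm pieces from the roots of 7-d-old seedlings, tips left out, and kept overnight in buffer, and each library pooled 2 wells of 24 pieces. Treated and control pieces had therefore both been wounded by cutting, and the extract was a crude mixture, so no value belongs to a single lipid. Each transcript identifier was taken once and kept when its mean was at least 1 TPM (transcripts per 1000000 transcripts of a library) over these 7 libraries. This left 18424 of 37962 transcripts, from 17264 loci of the MorexV3 annotation, whose identifiers carry the chromosome (2HG for chromosome 2H).

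Plants perceive conserved microbial molecules at the cell surface through receptor kinases and receptor proteins, and pattern-triggered immunity follows. Calcium influx, reactive oxygen species and mitogen-activated protein kinases act within minutes, and transcription follows within hours through WRKY, ethylene-responsive and other transcription factors. Well-described outputs in grass roots are pathogenesis-related proteins, phenylpropanoids, hydroxycinnamic acid amides of agmatine and diterpenoids. The genes of diterpenoid synthesis and of the plastidic MEP and cytosolic MVA pathways that feed it are only counted here.

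Because TPM are shares of a library, their depth is unknown, and error can be judged only from the spread between libraries. Nothing in the sources says that replicates came from separate plant batches, so *p*-values measure the spread between these libraries. Pearson's *r* of log2(TPM + 1) between libraries lay between 0.959 and 0.982 across transcripts. On the first principal component (29.8% of the variance) the lipid libraries lay between 10.6 and 35 and the solvent control libraries between −27.7 and −22.3; on the second (21.0%) solvent control replicate 1 stood apart, at −36.4 against 8.03 and 17.3 for the other controls. Of 13 green-tissue transcripts (chlorophyll-binding, photosystem and small Rubisco subunits) 2 reached the minimum, and the whole list summed to a mean of 4.35 TPM upon lipid treatment and 5.96 TPM in the solvent control. The 36 root transcripts (Casparian strip, nicotianamine synthase and high affinity nitrate transporter) summed to 829 TPM upon lipid treatment and 789.7 TPM in the solvent control, and the 36 grain storage and amylase transcripts summed to 353 TPM upon lipid treatment and 305 TPM in the solvent control.

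Upon *S. indica* lipid treatment, 213 transcripts rose and 18 fell. A transcript was called with an adjusted *p* of at most 0.05 (limma, Benjamini-Hochberg over all transcripts tested) and a log2 fold change (log2FC, the difference between the group means of log2(TPM + 1)) of at least 1 or at most −1. The 231 called transcripts are 1.25% of those tested, 1.16% for rises and 0.0977% for falls, and come from 231 loci. Without exception the lipid and solvent control libraries did not overlap in them, as was the case in 13.2% of all transcripts tested (6.8% higher and 6.39% lower upon lipid treatment). The rises were mostly modest and spread over the whole range of abundance: 140 had a log2FC under 1.5, 51 between 1.5 and 2, and 22 of 2 or more. Of the rises, 28 had a mean under 1 TPM in the solvent control and 11 a mean of 100 TPM or more. Added up, the rising transcripts took 14033, 14506, 15403 and 16273 TPM of the 4 lipid libraries and 5487, 6104 and 5387 TPM of the 3 solvent control libraries. These sums describe transcripts chosen for being higher and carry no test. In these whole-tissue samples a change in the share of a cell type and a change of RNA per cell cannot be told apart. With the adjusted *p* alone, 709 transcripts passed (3.85%), of which 601 were higher (3.26%) and 108 lower (0.586%). The median log2FC of all transcripts tested was −0.045. With single libraries left out, 141 of the 231 kept the call in all 7 fits, 136 rises and 5 falls; between 21 and 57 lost it in any single fit, most without solvent control replicate 1.

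**Figure D1:**
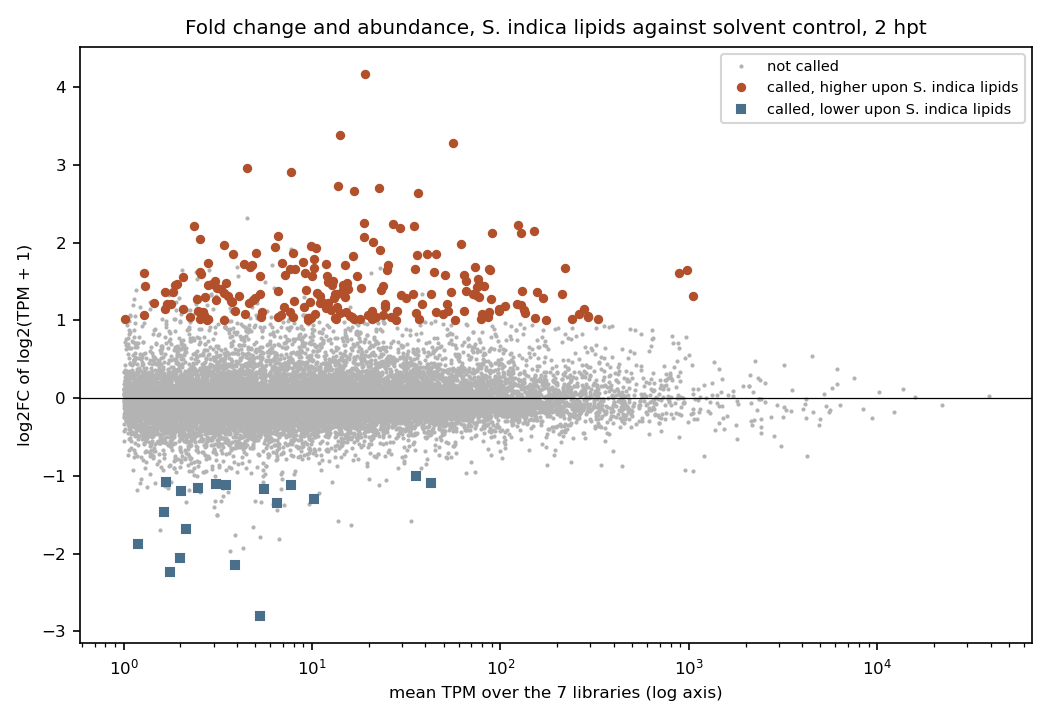
Each point is 1 of the 18424 transcripts tested, by its mean TPM over the 7 libraries (log axis) and its log2FC of log2(TPM + 1), S. indica lipids minus solvent control. The 213 called rises (circles) lie at all levels of abundance, and the 18 called falls (squares) lie mostly at low TPM.

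The largest rises outside the MEP, MVA and diterpene genes were led by blue copper proteins, small copper-binding proteins of the cell surface. HORVU.MOREX.r3.2HG0213120.1 had 45.0, 26.6, 29.0 and 30.8 TPM upon *S. indica* lipid treatment, against 0, 1.77 and 1.27 TPM in the solvent control (log2FC 4.17, SE 0.301, adjusted *p* = 6.78e-05), and HORVU.MOREX.r3.2HG0213070.1 had 82.2, 75.8, 95.7 and 112 TPM upon lipid treatment and 10.1, 9.07 and 6.44 TPM in the solvent control (log2FC 3.28, SE 0.162, adjusted *p* = 1.14e-05). A transcript described as adenylyltransferase and sulfurtransferase uba4, HORVU.MOREX.r3.2HG0122070.1, had 19.6, 12.4, 21.5 and 39.9 TPM upon *S. indica* lipid treatment, against 0, 3.30 and 1.31 TPM in the solvent control (log2FC 3.38, SE 0.466, adjusted *p* = 0.00216); in yeast this enzyme activates a ubiquitin-like protein that also serves in tRNA thiolation. All lipid libraries were far above the controls in these transcripts, although lipid replicate 4 of the uba4 transcript was much higher than the other lipid libraries. The 1-pyrroline-5-carboxylate dehydrogenase HORVU.MOREX.r3.5HG0517210.1, a mitochondrial enzyme that completes the oxidation of proline to glutamate, had 15.1, 16.7, 8.50 and 11.5 TPM upon *S. indica* lipid treatment, against 0.469, 1.58 and 0.567 TPM in the solvent control (log2FC 2.90, SE 0.240, adjusted *p* = 0.000124). For pathogenesis-related protein 1, HORVU.MOREX.r3.5HG0444100.1, 14.7, 16.9, 22.1 and 34.5 TPM upon lipid treatment and 3.75, 1.11 and 2.61 TPM in the solvent control were measured (log2FC 2.73, SE 0.415, adjusted *p* = 0.0039). HOX19, a homeodomain-leucine zipper transcription factor (HORVU.MOREX.r3.1HG0069120.1), had 20.6, 22.0, 42.0 and 22.8 TPM upon *S. indica* lipid treatment, against 5.05, 2.19 and 2.87 TPM in the solvent control (log2FC 2.66, SE 0.312, adjusted *p* = 0.000836), with lipid replicate 3 well above the other lipid libraries. The remaining members of the 10 largest rises, a further blue copper protein, a purine permease, an early nodulin 93 and 1 transcript of a G-patch protein, are taken up with their families.

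Among the 5 most abundant rises, quiescin-sulfhydryl oxidase 1 (HORVU.MOREX.r3.2HG0203250.1), which forms disulfide bonds in secreted proteins, had 1685, 1310.2, 1088 and 1540.5 TPM upon *S. indica* lipid treatment, against 754, 464 and 497 TPM in the solvent control (log2FC 1.31, SE 0.202, adjusted *p* = 0.00424). A B12D protein (HORVU.MOREX.r3.2HG0127330.1), of a small mitochondrial membrane protein family, had 1196, 1495, 1633 and 1174 TPM upon lipid treatment and 361, 497 and 455 TPM in the solvent control (log2FC 1.65, SE 0.152, adjusted *p* = 0.000216). The blue copper protein HORVU.MOREX.r3.4HG0401170.1 had 1149.9, 1208, 1252 and 1371 TPM upon *S. indica* lipid treatment, against 364, 478 and 388 TPM in the solvent control (log2FC 1.61, SE 0.107, adjusted *p* = 3.61e-05). In each of these the lowest lipid library lay well above the highest control library. The glycosyltransferase HORVU.MOREX.r3.6HG0617100.1 (log2FC 1.05, SE 0.105, adjusted *p* = 0.000335) and a hypoxia-responsive family protein (HORVU.MOREX.r3.2HG0113270.1, log2FC 1.02, SE 0.121, adjusted *p* = 0.000885) completed the 5 most abundant rises, with 375 ± 51.7 TPM upon lipid treatment and 179.6 ± 13.6 TPM in the solvent control for the glycosyltransferase (SD, n = 4 and 3). Both lay close to the fold limit: the glycosyltransferase was below it without *S. indica* lipid replicate 4 or solvent control replicate 2 (log2FC 0.96 to 0.99, adjusted *p* up to 0.00163), and the hypoxia-responsive protein without *S. indica* lipid replicates 2 or 3 or solvent control replicate 3 (log2FC 0.95 to 0.99, adjusted *p* up to 0.00715).

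**Figure D2:**
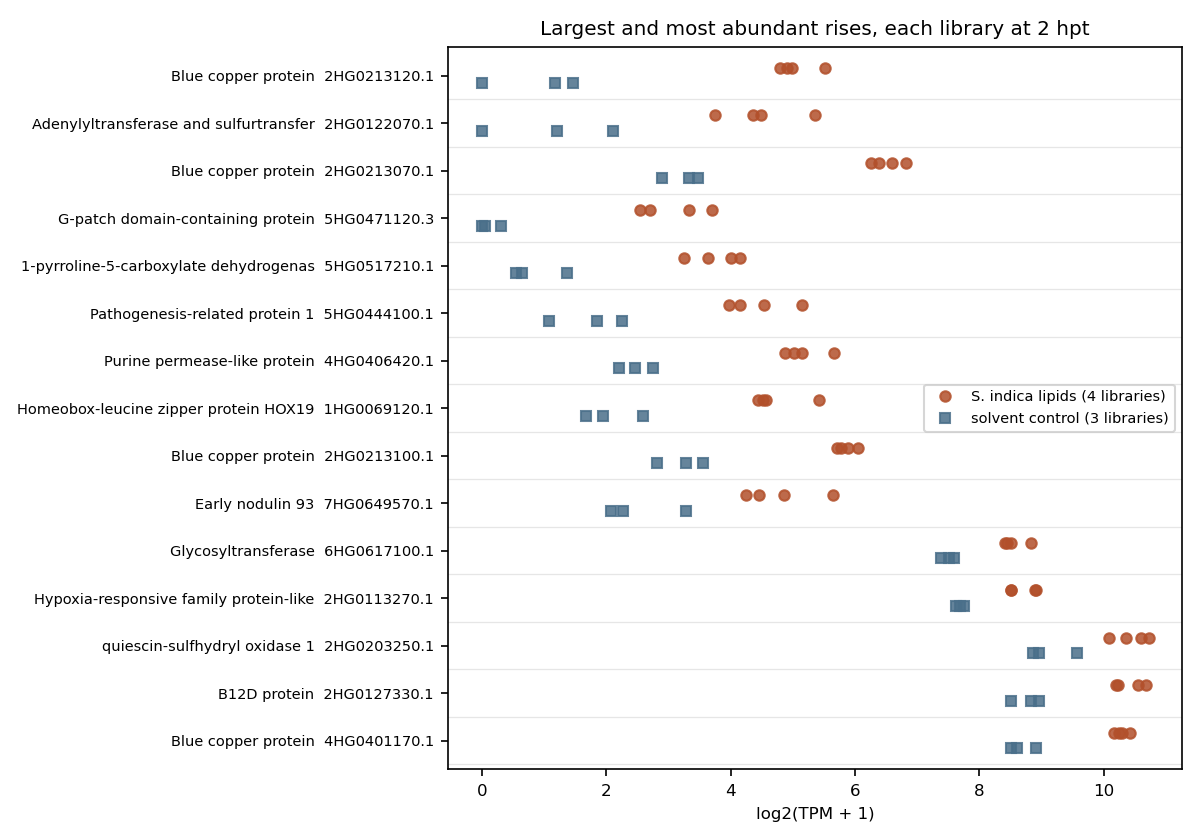
log2(TPM + 1) of the 10 largest rises outside the MEP, MVA and diterpene genes and of the 5 most abundant rises, 1 row per transcript; circles are the 4 S. indica lipid libraries and squares the 3 solvent control libraries at 2 hpt. In every row the circles lie to the right of all squares.

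The words of the description column were sorted into 87 classes, and 55 of them held at least 1 called transcript. Of the 231 called transcripts, 155 fell into such a class, 5 belonged to the MEP, MVA and diterpene enzymes (of 41 tested) and 71 to neither. The background against which to read each class is 1.25%. The highest shares, among classes with 10 or more transcripts tested, were those of early nodulins (37.5%, 6 of 16), purine permeases (36.4%, 4 of 11), lectins without a kinase domain (30.8%, 4 of 13), blue copper proteins (30%, 12 of 40) and phenylalanine ammonia-lyases (27.3%, 3 of 11). In each of these all called members rose. Counts within a class rest on few transcripts. When 1 library was left out, the receptor-like kinases called numbered 8 without solvent control replicate 1 and 18 without solvent control replicate 2, the WRKY factors 4 without lipid replicate 1, and the glutathione S-transferases 4 without lipid replicate 1 or solvent control replicate 2. Glycosyltransferases had 2 calls without lipid replicate 3, peroxidases 2 without lipid replicate 4 or solvent control replicate 2, hydroxyproline-rich proteins 2 and later phenylpropanoid enzymes 1 without solvent control replicate 1, and disease resistance proteins had 4 without solvent control replicate 3. Classes differ in size, so a small class reaches a high share with few transcripts, and neighbouring gene copies, described further on, count separately.

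**Figure D3:**
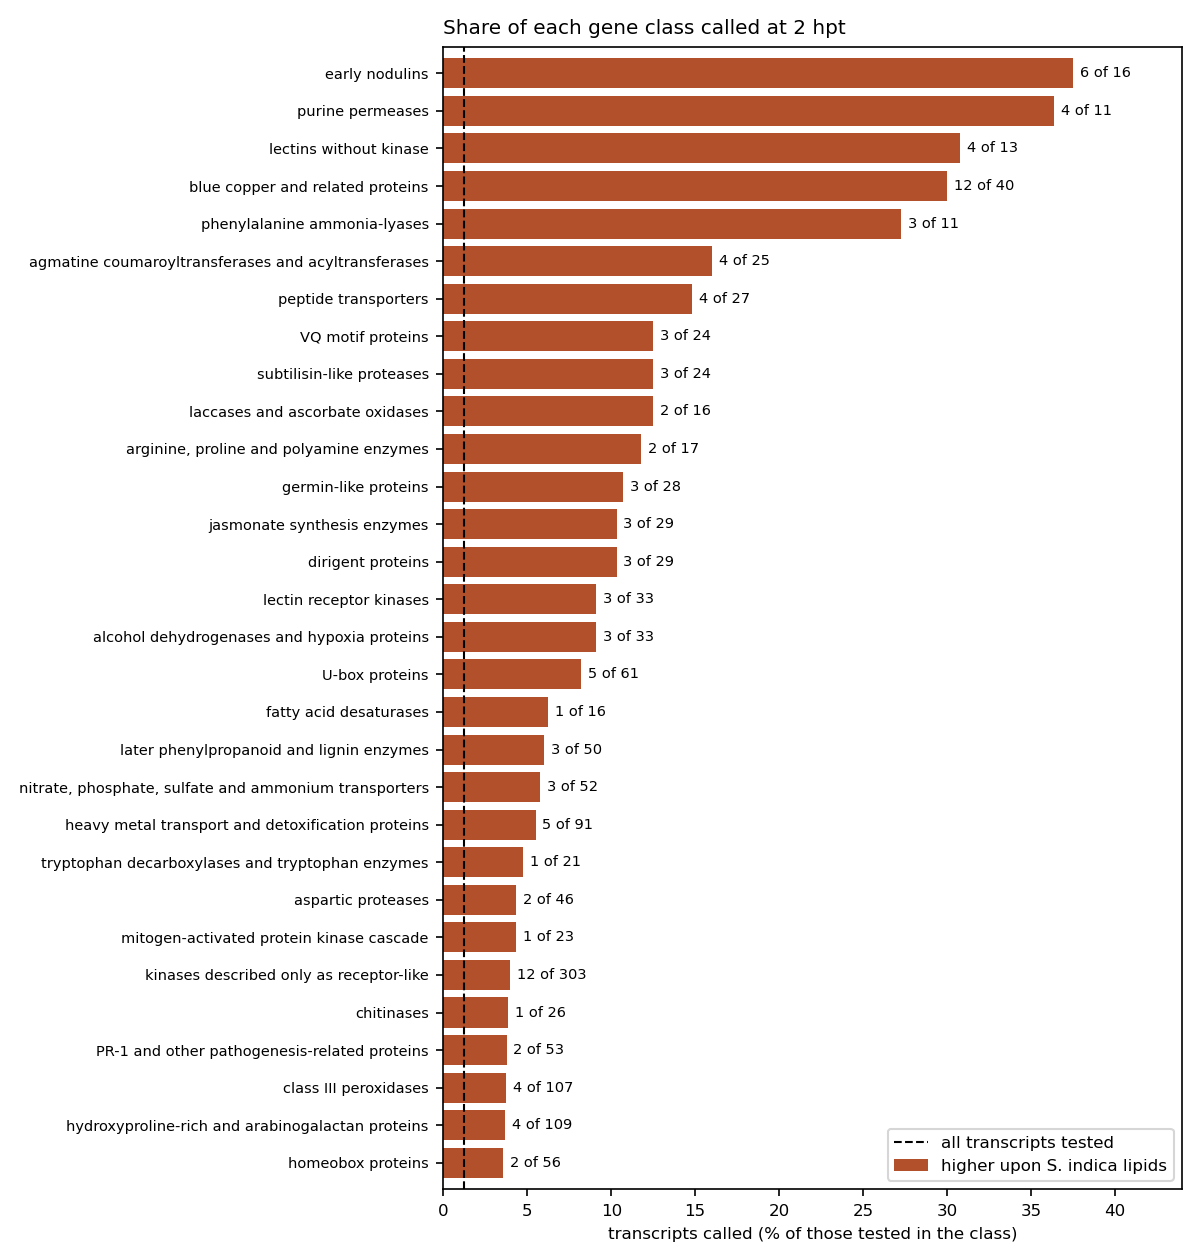
Percent of the tested transcripts of a gene class that were called upon S. indica lipid treatment, for the 30 classes with the highest shares among those with 10 or more tested; numbers beside the bars are transcripts called of transcripts tested, all higher upon lipid treatment. The dashed line marks the 1.25% of all transcripts tested; early nodulins, purine permeases, lectins, blue copper proteins and phenylalanine ammonia-lyases have the longest bars.

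Rises among perception genes were few and spread over several receptor families. Of 303 transcripts described only as receptor-like kinases, 12 rose (3.96%) and 0 fell, and 42 were higher with the adjusted *p* alone; their median log2FC was 0.14, against −0.045 over all transcripts. The largest was HORVU.MOREX.r3.2HG0205050.1, with 5.01, 3.98, 5.20 and 9.83 TPM upon *S. indica* lipid treatment, against 0.604, 0.895 and 1.09 TPM in the solvent control (log2FC 1.85, SE 0.240, adjusted *p* = 0.00153), followed by HORVU.MOREX.r3.6HG0614080.1 (log2FC 1.46, SE 0.184, adjusted *p* = 0.00133) and HORVU.MOREX.r3.2HG0216780.1 (log2FC 1.39, SE 0.186, adjusted *p* = 0.00183). The receptor-like kinase with the largest rise was at its highest in lipid replicate 4 and near 1 TPM or below in all controls. Of 33 lectin receptor kinases 3 rose, led by HORVU.MOREX.r3.1HG0009480.1 with 13.2, 8.22, 8.03 and 12.4 TPM upon lipid treatment and 2.27, 3.86 and 2.27 TPM in the solvent control (log2FC 1.59, SE 0.230, adjusted *p* = 0.003). The count was 2 without solvent control replicate 1 or 3. With the adjusted *p* alone 7 were higher and 1 lower. The lower one, HORVU.MOREX.r3.2HG0195500.1, had means of 47.2 TPM upon lipid treatment and 91.0 TPM in the solvent control (log2FC −0.96, SE 0.22, adjusted *p* = 0.0356, limma). The class summed to a mean of 3129 TPM upon lipid treatment and 3193 TPM in the solvent control. Of 68 leucine-rich repeat receptor kinases, the family of the known peptide receptors, 2 rose. HORVU.MOREX.r3.3HG0318390.1 had 31.3, 31.9, 30.2 and 50.0 TPM upon *S. indica* lipid treatment, against 8.87, 17.8 and 6.09 TPM in the solvent control (log2FC 1.72, SE 0.323, adjusted *p* = 0.0126) but was not called without solvent control replicates 1 or 3 (log2FC 1.40 to 1.64, adjusted *p* up to 0.0613), and HORVU.MOREX.r3.7HG0726150.1 had a log2FC of 1.29 (7.05 ± 1.82 TPM upon lipid treatment and 2.23 ± 0.194 TPM in the solvent control, SD, n = 4 and 3).

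LysM proteins, which include the plant receptors for chitin, were not called by limma (0 of 11), although 2 were higher with the adjusted *p* alone and 5 higher and 1 lower at an unadjusted *p* under 0.05, where 15.2% of all transcripts tested passed, 8.47% higher and 6.72% lower. The most abundant, the LysM domain GPI-anchored protein HORVU.MOREX.r3.4HG0409440.1, had 118, 128, 126 and 146 TPM upon *S. indica* lipid treatment, against 60.3, 97.1 and 77.0 TPM in the solvent control (log2FC 0.74, SE 0.138, adjusted *p* = 0.0121). Cysteine-rich receptor kinases (0 of 13 called, 5 higher and 0 lower at the unadjusted *p*) and wall-associated kinases (0 of 7, 1 higher and 0 lower) were likewise without a call. The most abundant wall-associated kinase, HORVU.MOREX.r3.3HG0306100.1, had wide spread in both groups: 27.7, 22.6, 15.3 and 51.3 TPM upon lipid treatment and 16.2, 4.82 and 6.47 TPM in the solvent control gave a log2FC of 1.60 with an SE of 0.510 (adjusted *p* = 0.14), and the groups overlapped. Intracellular disease resistance proteins were close to the background, with 2 rises in 215 (0.93%). They were HORVU.MOREX.r3.6HG0633870.1 (log2FC 1.26, SE 0.182, adjusted *p* = 0.00289) and HORVU.MOREX.r3.1HG0081690.1 (log2FC 1.02, SE 0.162, adjusted *p* = 0.00485), of which the second was under the fold limit without *S. indica* lipid replicate 4 or solvent control replicate 3 (log2FC 0.87 to 0.93, adjusted *p* up to 0.0249). Of 9 transcripts of MLO-like proteins, membrane proteins whose barley founding member governs powdery mildew susceptibility, HORVU.MOREX.r3.2HG0107940.3 rose, with 108, 105, 88.9 and 113 TPM upon *S. indica* lipid treatment, against 37.1, 47.3 and 40.8 TPM in the solvent control (log2FC 1.29, SE 0.131, adjusted *p* = 0.000366). A more abundant transcript of the same locus, HORVU.MOREX.r3.2HG0107940.1, had means of 208 TPM upon lipid treatment and 115 TPM in the solvent control. It passed the adjusted *p* but not the fold limit (log2FC 0.87, SE 0.161, adjusted *p* = 0.0119, limma). The locus sum had a log2FC of 1.01 (adjusted *p* = 0.00345, limma on TPM summed per locus).

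Downstream of receptors, U-box proteins had the highest share of calls among the signalling classes described here. U-box proteins are ubiquitin ligases that include brakes on receptor signalling in *Arabidopsis* and rice; 5 of 61 rose (8.2%) and 0 fell. HORVU.MOREX.r3.4HG0393050.1 had 3.22, 3.98, 4.31 and 4.48 TPM upon *S. indica* lipid treatment, against 0.776, 0.526 and 0.553 TPM in the solvent control (log2FC 1.62, SE 0.156, adjusted *p* = 0.000273), HORVU.MOREX.r3.2HG0167350.1 had a log2FC of 1.40 and HORVU.MOREX.r3.6HG0616340.1 of 1.39. Leaving out lipid replicate 3 lowered the number of U-box calls to 3. Among 296 RING proteins, another class of ubiquitin ligases, 2 rose and 3 fell (1.69%). In the mitogen-activated protein kinase cascade 1 of 23 transcripts was called, the MAPK kinase kinase HORVU.MOREX.r3.6HG0613640.1. It had 49.3, 41.0, 35.3 and 78.2 TPM upon *S. indica* lipid treatment, against 9.34, 27.0 and 3.23 TPM in the solvent control (log2FC 2.21, SE 0.505, adjusted *p* = 0.0344). The control libraries differed widely, and the call was lost without any of the 4 *S. indica* lipid libraries or solvent control replicates 1 or 3 (log2FC 1.55 to 2.37, adjusted *p* up to 0.113), leaving it only in the fit without solvent control replicate 2.

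Calcium sensors gave 1 rise and 1 fall in 115. The EF-hand protein HORVU.MOREX.r3.5HG0490380.1 had 278, 455, 448 and 264 TPM upon *S. indica* lipid treatment, against 135, 227 and 129 TPM in the solvent control (log2FC 1.14, SE 0.248, adjusted *p* = 0.027), with lipid replicates 2 and 3 well above the other lipid libraries, and was not called without *S. indica* lipid replicates 2 or 3 or solvent control replicates 1 or 3 (log2FC 1.00 to 1.03, adjusted *p* up to 0.124). A calmodulin-binding protein (HORVU.MOREX.r3.5HG0448660.1, log2FC 1.01) lay at the limit and was below it without *S. indica* lipid replicates 2 or 4 or solvent control replicate 3 (log2FC 0.89 to 0.98, adjusted *p* up to 0.0067). Of 144 phosphoinositide and phospholipid transcripts 2 rose (1.39%): a PI-PLC X domain protein, of the fold of phospholipase C enzymes that split phosphoinositides, and a Sec14p-like phosphatidylinositol transfer protein. With the adjusted *p* alone 4 were higher and 2 lower, and the class median was −0.019. The lower ones were a phosphatidylinositol 4-kinase gamma-like transcript (HORVU.MOREX.r3.5HG0488570.1, log2FC −0.47, means of 27.5 TPM upon lipid treatment and 38.4 TPM in the solvent control) and a 1-phosphatidylinositol-3-phosphate 5-kinase (HORVU.MOREX.r3.2HG0217490.1, log2FC −0.72, 5.20 and 8.99 TPM). The PI-PLC X domain transcript HORVU.MOREX.r3.7HG0707220.1 had 6.34, 7.58, 7.86 and 7.08 TPM upon *S. indica* lipid treatment, against 1.51, 1.71 and 1.32 TPM in the solvent control (log2FC 1.71, SE 0.138, adjusted *p* = 0.00012), and the Sec14p-like HORVU.MOREX.r3.3HG0312200.1 had 90.2, 98.4, 109.7 and 126 TPM upon lipid treatment and 38.9, 46.2 and 29.5 TPM in the solvent control (log2FC 1.46, SE 0.159, adjusted *p* = 0.00056). In both, every lipid library lay above every control. Among type 2C protein phosphatases, negative regulators in several stress pathways, 0 of 63 were called by limma (9 higher and 5 lower at an unadjusted *p* under 0.05), and among calcium channels and pumps 0 of 47 (7 higher and 4 lower). Respiratory burst oxidases, which make extracellular superoxide, had 0 of 10 called (1 higher and 0 lower); the most abundant, HORVU.MOREX.r3.4HG0409670.1, had 59.9, 68.9, 66.8 and 78.1 TPM upon *S. indica* lipid treatment, against 41.4, 56.7 and 46.5 TPM in the solvent control and passed the adjusted *p* but not the fold limit (log2FC 0.50, SE 0.118, adjusted *p* = 0.0407). Exocyst and syntaxin proteins of secretion had 0 of 54 called (6 higher and 4 lower), and F-box proteins had 3 rises and 1 fall in 416 (0.962%).

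Transcription factor families held few calls. Of the VQ motif proteins, short partners of WRKY factors, 3 of 24 rose (12.5%), 0 fell, and the class median was 0.36. Transcript HORVU.MOREX.r3.5HG0517230.1 had 34.4, 32.9, 51.0 and 47.1 TPM upon *S. indica* lipid treatment, against 9.55, 7.24 and 6.92 TPM in the solvent control (log2FC 2.24, SE 0.176, adjusted *p* = 0.000101), HORVU.MOREX.r3.2HG0200270.1 had a log2FC of 1.57 and HORVU.MOREX.r3.7HG0708960.1 of 1.22. All 3 kept the call when any library was left out. WRKY factors, prominent activators and repressors of immune genes, had 1 of 64 called (1.56%), HORVU.MOREX.r3.1HG0071500.1, with 15.9, 15.5, 17.6 and 23.9 TPM upon *S. indica* lipid treatment, against 5.89, 8.46 and 5.49 TPM in the solvent control (log2FC 1.34, SE 0.169, adjusted *p* = 0.00136). With the adjusted *p* alone 11 WRKY transcripts were higher and 0 lower; the others stayed under the fold limit. Of 88 bHLH factors 3 rose. HORVU.MOREX.r3.3HG0267290.1 had 15.3, 18.0, 16.4 and 19.3 TPM upon lipid treatment and 6.24, 5.47 and 4.8 TPM in the solvent control (log2FC 1.49, SE 0.118, adjusted *p* = 0.000101) and HORVU.MOREX.r3.3HG0236050.1 a log2FC of 1.42. The third, HORVU.MOREX.r3.2HG0159040.1 (log2FC 1.15), was lost without *S. indica* lipid replicates 1 or 4 or solvent control replicates 2 or 3 (log2FC 0.92 to 1.10, adjusted *p* up to 0.116).

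Homeobox proteins had 2 rises in 56, HOX19 and HORVU.MOREX.r3.6HG0559530.1 (log2FC 1.04), which was under the limit without *S. indica* lipid replicate 4 or solvent control replicate 1 (log2FC 0.80 to 0.98, adjusted *p* up to 0.0375). In the ethylene-responsive family 1 of 77 rose, HORVU.MOREX.r3.4HG0331360.1, with 11, 10.3, 9.92 and 9.46 TPM upon *S. indica* lipid treatment, against 3.62, 3.85 and 5.16 TPM in the solvent control (log2FC 1.11, SE 0.131, adjusted *p* = 0.000885), and the class median was −0.09. With the adjusted *p* alone 1 was higher and 1 lower. The lower, more abundant one, HORVU.MOREX.r3.4HG0405710.1, had means of 252 TPM upon lipid treatment and 457 TPM in the solvent control (log2FC −0.86, SE 0.183, adjusted *p* = 0.0239, limma). MYB factors had 1 rise, HORVU.MOREX.r3.7HG0736840.1 (log2FC 1.06), and 1 fall in 147, and the rise was lost without *S. indica* lipid replicates 1 or 4 or solvent control replicates 2 or 3 (log2FC 0.88 to 1.06, adjusted *p* up to 0.0685). By limma, 0 of 63 NAC (5 higher and 4 lower at an unadjusted *p* under 0.05), 0 of 42 bZIP (1 higher and 3 lower), 0 of 26 GRAS (2 higher and 1 lower) and 0 of 19 heat shock factors (2 higher and 3 lower) were called. The most abundant NAC transcript, HORVU.MOREX.r3.5HG0524540.1, had 375, 436, 428 and 455 TPM upon *S. indica* lipid treatment, against 494, 511 and 520.0 TPM in the solvent control (log2FC −0.27, SE 0.0919, adjusted *p* = 0.178); every lipid library was below every control, but the difference did not pass the adjusted *p*.

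Among hormone-related genes, jasmonate synthesis held the most calls. Of its 29 transcripts 3 rose (10.3%) and 0 fell, and with the adjusted *p* alone 7 were higher and 1 lower. The lower transcript was the allene oxide synthase HORVU.MOREX.r3.6HG0579680.1, with means of 27.6 TPM upon lipid treatment and 45.0 TPM in the solvent control (log2FC −0.67, SE 0.139, adjusted *p* = 0.0212, limma). The class summed to a mean of 5533 TPM upon lipid treatment and 5686 TPM in the solvent control. The lipoxygenase HORVU.MOREX.r3.7HG0679840.1, of the family that oxygenates polyunsaturated fatty acids, had 9.45, 11.2, 13.0 and 14.3 TPM upon *S. indica* lipid treatment, against 2.39, 2.66 and 2.55 TPM in the solvent control (log2FC 1.86, SE 0.141, adjusted *p* = 8.63e-05). A pair of neighbouring transcripts described as 12-oxophytodienoate reductase-like, an enzyme type that in other members reduces the jasmonate precursor OPDA, also rose: HORVU.MOREX.r3.7HG0664260.1 had 16.5, 13.7, 18.3 and 19.7 TPM upon lipid treatment and 2.71, 5.59 and 7.91 TPM in the solvent control (log2FC 1.57, SE 0.253, adjusted *p* = 0.00535) and HORVU.MOREX.r3.7HG0664250.1 a log2FC of 1.25. All 3 kept the call when any library was left out. In contrast, 0 of 10 JAZ repressors, which jasmonate signalling usually induces, were called by limma, and 0 had an unadjusted *p* under 0.05; the most abundant, HORVU.MOREX.r3.2HG0203510.1, had 218, 214, 193 and 179 TPM upon *S. indica* lipid treatment, against 228, 209 and 212 TPM in the solvent control (log2FC −0.11, SE 0.0917, adjusted *p* = 0.626).

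Ethylene synthesis enzymes (ACC synthases and oxidases) had 0 of 12 called by limma, with 3 higher at the adjusted *p* alone and 5 higher and 0 lower at the unadjusted *p*. The most abundant ACC oxidase, HORVU.MOREX.r3.7HG0746640.1, had 121, 204, 231 and 146 TPM upon *S. indica* lipid treatment, against 104, 112 and 113 TPM in the solvent control (log2FC 0.63, SE 0.197, adjusted *p* = 0.132), again highest in lipid replicates 2 and 3. A salicylate O-methyltransferase, HORVU.MOREX.r3.3HG0316070.1, was the 1 call among 7 methyltransferases of this kind, with 23.8, 17.9, 16.6 and 21.7 TPM upon lipid treatment and 8.67, 9.03 and 8.39 TPM in the solvent control (log2FC 1.10, SE 0.160, adjusted *p* = 0.00303). Of 124 auxin transcripts 1 rose (0.806%), the SAUR-like HORVU.MOREX.r3.6HG0595760.1 (log2FC 1.17), not called without solvent control replicate 2 (log2FC 1.03, adjusted *p* = 0.0519). An abscisic stress ripening transcript, HORVU.MOREX.r3.3HG0325230.1 (log2FC 1.93), was the 1 call in 34 and was lost without *S. indica* lipid replicates 2, 3 or 4 or solvent control replicates 1 or 3 (log2FC 1.41 to 2.13, adjusted *p* up to 0.0873). Gibberellin and cytokinin transcripts had 0 of 23 called (2 higher and 1 lower at an unadjusted *p* under 0.05).

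Among antimicrobial and extracellular proteins, a few members rose in many families while the very abundant proteinase inhibitors had no call. Pathogenesis-related proteins had 2 rises in 53 (3.77%): PR-1 above, and HORVU.MOREX.r3.5HG0444220.1, with 178, 168, 152 and 234 TPM upon *S. indica* lipid treatment, against 28.1, 83.1 and 23.0 TPM in the solvent control (log2FC 2.22, SE 0.364, adjusted *p* = 0.00594). Solvent control replicate 2 was higher than the other controls in this transcript, yet below every lipid library. The chitinase HORVU.MOREX.r3.6HG0592970.1, of enzymes that cut fungal cell wall chitin, had 49.0, 57.5, 64.8 and 65.9 TPM upon lipid treatment and 13.4, 24.5 and 11.6 TPM in the solvent control (log2FC 1.85, SE 0.208, adjusted *p* = 0.000652), the 1 call among 26. Of 24 subtilisin-like proteases, secreted serine proteases, 3 rose (12.5%). HORVU.MOREX.r3.7HG0654260.1 had 244, 221, 184 and 252 TPM upon *S. indica* lipid treatment, against 52.3, 47.6 and 48.6 TPM in the solvent control (log2FC 2.15, SE 0.138, adjusted *p* = 3.42e-05), HORVU.MOREX.r3.3HG0294720.1 a log2FC of 1.86 and HORVU.MOREX.r3.3HG0243460.1 of 1.67, and all 3 kept the call when any library was left out. Germin-like proteins, extracellular proteins that include superoxide dismutases, had 3 rises in 28 (10.7%), which also held in all 7 fits. The largest was HORVU.MOREX.r3.3HG0220160.1 (log2FC 1.94, SE 0.251, adjusted *p* = 0.00153), and the most abundant of the 3, HORVU.MOREX.r3.5HG0522100.1, had 86.8, 90.1, 109.9 and 114 TPM upon lipid treatment and 37.2, 41.7 and 38.5 TPM in the solvent control (log2FC 1.33, SE 0.118, adjusted *p* = 0.000184).

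Dirigent proteins, which steer the coupling of phenolic radicals, had 3 neighbouring transcripts called of 29 tested (10.3%). HORVU.MOREX.r3.5HG0510240.1 had 145, 159.8, 178 and 194 TPM upon *S. indica* lipid treatment, against 71.9, 95.2 and 56.3 TPM in the solvent control (log2FC 1.20, SE 0.158, adjusted *p* = 0.00168) and HORVU.MOREX.r3.5HG0510250.1 a log2FC of 1.13, while HORVU.MOREX.r3.5HG0510230.1 (log2FC 1.01) was lost without *S. indica* lipid replicates 2, 3 or 4 or solvent control replicates 2 or 3 (log2FC 0.92 to 0.97, adjusted *p* up to 0.0677). The 4 lectins called of 13 depended on single libraries. HORVU.MOREX.r3.5HG0531210.1, the largest, had 15.1, 13.1, 12 and 15.8 TPM upon lipid treatment and 1.90, 8.24 and 3.67 TPM in the solvent control (log2FC 1.58, SE 0.334, adjusted *p* = 0.0238) and was lost without *S. indica* lipid replicates 1, 2 or 4 or solvent control replicates 1 or 3 (log2FC 1.18 to 1.60, adjusted *p* up to 0.0936); without lipid replicate 4 or solvent control replicate 1, 0 lectins were called. Aspartic proteases had 2 rises in 46, HORVU.MOREX.r3.2HG0139080.1 (log2FC 1.66) and HORVU.MOREX.r3.7HG0747610.1 (1.12). Of 95 transcripts matched by the wording for beta-glucanases 1 was called, HORVU.MOREX.r3.3HG0318610.1 (log2FC 1.05). Its description, like others in this class, is cut after "Beta-1", so the class need not hold only glucanases. The call was lost without *S. indica* lipid replicates 1, 3 or 4 or solvent control replicates 1 or 3 (log2FC 0.79 to 1.12, adjusted *p* up to 0.111). Proteinase inhibitors, the most abundant class of all with a summed mean of 163698 TPM upon lipid treatment and 165044 TPM in the solvent control, had 0 of 57 called by limma (2 higher and 3 lower at an unadjusted *p* under 0.05). The wound-induced protease inhibitor HORVU.MOREX.r3.1HG0066680.1 alone had 39280.2, 38292, 40659 and 39555 TPM upon *S. indica* lipid treatment, against 38204, 36532 and 41172 TPM in the solvent control (log2FC 0.03, SE 0.118, adjusted *p* = 0.934). Defensins and thionins (0 of 23 called, 0 at the unadjusted *p*) and lipid-transfer proteins (0 of 60, 6 higher and 3 lower) were also without a call.

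At the entry to phenylpropanoids the whole class lay on the higher side. Phenylalanine ammonia-lyase makes cinnamate from phenylalanine, the first step towards lignin, flavonoids and hydroxycinnamic amides. All 11 transcripts tested had a log2FC above 0, with a median of 0.82 against −0.045 over all transcripts, 8 were higher with the adjusted *p* alone, and 3 were called. The median counts each transcript alike, whatever its abundance. Summed over the class, the lipid libraries had 2967, 3607, 2913 and 3058 TPM and the solvent control libraries 2284, 2891 and 2635 TPM. HORVU.MOREX.r3.2HG0182090.1, the most abundant of the called, had 115, 115, 97.1 and 112 TPM upon *S. indica* lipid treatment, against 46.0, 65.6 and 47.8 TPM in the solvent control (log2FC 1.05, SE 0.142, adjusted *p* = 0.00195), HORVU.MOREX.r3.2HG0132820.1 had 23.4, 27.2, 22.3 and 30.6 TPM upon lipid treatment and 10.9, 12.7 and 11.4 TPM in the solvent control (log2FC 1.07, SE 0.121, adjusted *p* = 0.00065), and HORVU.MOREX.r3.2HG0137190.1 a log2FC of 1.01. All 3 lay close to the limit of 1. The most abundant was lost without solvent control replicates 1 or 3 (log2FC 0.95 to 0.98, adjusted *p* up to 0.0136), the transcript with the largest rise without *S. indica* lipid replicate 4 (log2FC 0.99, adjusted *p* = 0.0017) and HORVU.MOREX.r3.2HG0137190.1 without *S. indica* lipid replicates 2 or 4 or solvent control replicates 1 or 3 (log2FC 0.94 to 1.00, adjusted *p* up to 0.00666), and 1 was left without lipid replicate 4 or without solvent control replicate 1 or 3. Further along, 3 of 50 transcripts rose (6%) and the class median was 0.02. The chalcone synthase HORVU.MOREX.r3.6HG0613330.1, the entry to flavonoids, had 104, 103, 137 and 147 TPM upon *S. indica* lipid treatment, against 45.7, 30.3 and 38.7 TPM in the solvent control (log2FC 1.66, SE 0.160, adjusted *p* = 0.000273). The 4-coumarate CoA ligase HORVU.MOREX.r3.6HG0570040.1 (log2FC 1.02) was under the limit without *S. indica* lipid replicate 4 or solvent control replicate 1 (log2FC 0.96 in each, adjusted *p* up to 0.00241), and the cinnamoyl CoA reductase HORVU.MOREX.r3.7HG0651280.1 (log2FC 1.29) was not called without solvent control replicate 1 (log2FC 1.17, adjusted *p* = 0.0636). Shikimate and chorismate enzymes upstream had 0 of 23 called by limma, with 5 higher and 0 lower at an unadjusted *p* under 0.05; the most abundant, HORVU.MOREX.r3.7HG0645370.1, had 246, 245, 226 and 246 TPM upon lipid treatment and 191, 198 and 181 TPM in the solvent control (log2FC 0.34, SE 0.0904, adjusted *p* = 0.0713).

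Enzymes that make and use agmatine were among the rises. Arginine decarboxylase makes agmatine from arginine, and agmatine coumaroyltransferase joins it to coumaroyl-CoA, the first step towards the antifungal hordatines of barley. The arginine decarboxylase HORVU.MOREX.r3.7HG0644220.1 had 132, 157, 161 and 199 TPM upon *S. indica* lipid treatment, against 56.1, 77.1 and 74.9 TPM in the solvent control (log2FC 1.21, SE 0.150, adjusted *p* = 0.00121). It and the 1-pyrroline-5-carboxylate dehydrogenase were the 2 calls among 17 arginine, proline and polyamine transcripts, whose median was −0.03, and both held when any library was left out. Of 25 agmatine coumaroyltransferase and related acyltransferase transcripts 4 rose (16%), 8 were higher and 1 lower with the adjusted *p* alone, and the median was 0.41. The largest was HORVU.MOREX.r3.5HG0501430.1, with 3.72, 4.59, 5.04 and 4.23 TPM upon lipid treatment and 0.703, 1.24 and 0.939 TPM in the solvent control (log2FC 1.46, SE 0.166, adjusted *p* = 0.000669). HORVU.MOREX.r3.5HG0496740.1 had 16.2, 18.8, 22.9 and 27.6 TPM upon lipid treatment and 5.86, 10.2 and 6.53 TPM in the solvent control (log2FC 1.40, SE 0.208, adjusted *p* = 0.00336), and HORVU.MOREX.r3.4HG0406080.1 (log2FC 1.45) was not called without solvent control replicates 1 or 3 (log2FC 1.21 to 1.35, adjusted *p* up to 0.0586). The number called was 3 without solvent control replicate 1 and 6 without lipid replicate 1. A tryptophan decarboxylase, the source of tryptamine and serotonin, was the 1 call among 21 tryptophan transcripts: HORVU.MOREX.r3.7HG0643120.1 had 5.34, 4.28, 4.59 and 6.45 TPM upon *S. indica* lipid treatment, against 0.731, 1.90 and 1.10 TPM in the solvent control (log2FC 1.48, SE 0.194, adjusted *p* = 0.00163).

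Conjugating and exporting enzymes had scattered rises. Glutathione S-transferases, which attach glutathione to reactive compounds, had 2 calls in 95 (2.11%), and 11 higher with 0 lower at the adjusted *p* alone. HORVU.MOREX.r3.6HG0548070.1 had 290.1, 284, 261 and 314 TPM upon *S. indica* lipid treatment, against 94.7, 126 and 119 TPM in the solvent control (log2FC 1.34, SE 0.105, adjusted *p* = 0.000101), and HORVU.MOREX.r3.7HG0641120.1 a log2FC of 1.11. Of 192 glycosyltransferases 4 rose (2.08%), the largest being the UDP-glycosyltransferase HORVU.MOREX.r3.4HG0341100.1, with 9.13, 11.4, 16.4 and 16.4 TPM upon lipid treatment and 2.78, 3.46 and 3.22 TPM in the solvent control (log2FC 1.75, SE 0.192, adjusted *p* = 0.000585). ABC transporters, pumps that include exporters of defence metabolites, had 2 rises in 88 (2.27%). HORVU.MOREX.r3.1HG0076600.1 had 121, 104, 94.7 and 132 TPM upon *S. indica* lipid treatment, against 41.9, 45.8 and 34.8 TPM in the solvent control (log2FC 1.44, SE 0.149, adjusted *p* = 0.000428) and the pleiotropic drug resistance transporter HORVU.MOREX.r3.7HG0722560.1 a log2FC of 1.18 (32.2 ± 4.24 TPM upon lipid treatment and 13.7 ± 2.09 TPM in the solvent control, SD, n = 4 and 3). MATE efflux proteins had 0 of 41 called by limma (4 higher and 2 lower at an unadjusted *p* under 0.05), and transcripts with P450 in their description 0 of 11 (2 higher and 1 lower). That wording matched only 23 of 37962 transcripts, among them a NADPH-cytochrome P450 reductase. Any P450 described in other words was not counted, so the P450 family as a whole was not described here. O-methyltransferases were without a call too (0 of 36), but 11 were lower and 2 higher at the unadjusted *p*, with a class median of −0.29; the most abundant, HORVU.MOREX.r3.4HG0413360.2, had 857, 727, 653 and 779 TPM upon *S. indica* lipid treatment, against 1244, 884 and 1095 TPM in the solvent control (log2FC −0.50, SE 0.133, adjusted *p* = 0.0687). In lipid metabolism, GDSL esterases and lipases had 2 rises in 74 (2.7%), HORVU.MOREX.r3.6HG0615950.1 (log2FC 1.66, SE 0.124, adjusted *p* = 8.63e-05) and HORVU.MOREX.r3.3HG0224540.1 (log2FC 1.09, SE 0.0972, adjusted *p* = 0.000184), and an omega-3 fatty acid desaturase, HORVU.MOREX.r3.4HG0384980.1, was the 1 call among 16 desaturases (log2FC 1.08).

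Blue copper and related proteins had 12 rises in 40 and 0 falls, and all transcripts of the class summed to 4177, 4521, 4939 and 4936 TPM in the lipid libraries, against 2578, 3109 and 2833 TPM in the solvent control. The class median was 0.18, against −0.045 over all transcripts. Besides the transcripts named above, HORVU.MOREX.r3.2HG0213100.1 had 65.2, 53.8, 51.5 and 58.3 TPM upon *S. indica* lipid treatment, against 8.77, 6.07 and 10.8 TPM in the solvent control (log2FC 2.63, SE 0.173, adjusted *p* = 3.61e-05). The number called was 9 without solvent control replicate 3 and at most 12 in any fit that left out 1 library. Early nodulins, named after genes of legume root nodules, had 6 rises in 16 and a class median of 1.11. In the early nodulin 93 HORVU.MOREX.r3.7HG0649570.1, 18.0, 28.0, 48.9 and 21.0 TPM upon lipid treatment and 3.23, 8.77 and 3.84 TPM in the solvent control were measured (log2FC 2.25, SE 0.357, adjusted *p* = 0.00485), with lipid replicate 3 the highest library here and in the 4 other called copies of early nodulin 93. HORVU.MOREX.r3.7HG0649510.1 had a log2FC of 1.87, and HORVU.MOREX.r3.7HG0649480.1 (log2FC 2.18) was not called without *S. indica* lipid replicates 3 or 4 or solvent control replicates 1 or 2 (log2FC 1.66 to 2.21, adjusted *p* up to 0.0878). The class had 4 calls without solvent control replicate 1.

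Alternative oxidases, described as ubiquinol oxidases, let mitochondrial electrons bypass the cytochrome pathway, and 2 of 4 rose. With the adjusted *p* alone 3 were higher and 1 lower. The lower one, HORVU.MOREX.r3.2HG0213170.1, had means of 42.6 TPM upon lipid treatment and 58.8 TPM in the solvent control (log2FC −0.455, SE 0.0917, adjusted *p* = 0.0183, limma). The class summed to a mean of 159 TPM upon lipid treatment and 115 TPM in the solvent control. HORVU.MOREX.r3.2HG0193660.1 had 28.6, 24.9, 28.1 and 32.9 TPM upon *S. indica* lipid treatment, against 7.14, 5.04 and 5.98 TPM in the solvent control (log2FC 2.07, SE 0.132, adjusted *p* = 3.42e-05), while its neighbour HORVU.MOREX.r3.2HG0193650.1 (log2FC 1.04) was under the limit without *S. indica* lipid replicate 4 or solvent control replicate 2 (log2FC 0.79 to 0.94, adjusted *p* up to 0.0323). Of 16 laccases and ascorbate oxidases, multicopper enzymes of the wall, 2 ascorbate oxidases rose; HORVU.MOREX.r3.5HG0494290.1 had 2.94, 4.18, 5.31 and 4.61 TPM upon lipid treatment and 0.274, 0.293 and 0.210 TPM in the solvent control (log2FC 2.04, SE 0.190, adjusted *p* = 0.000232), and HORVU.MOREX.r3.5HG0494240.1 (log2FC 1.02) was not called without *S. indica* lipid replicates 3 or 4 or solvent control replicate 2 (log2FC 0.98 to 0.99, adjusted *p* up to 0.0125). Class III peroxidases, secreted enzymes that use hydrogen peroxide on phenolics, had 4 rises in 107 (3.74%) and a median of 0.00. HORVU.MOREX.r3.3HG0291910.1 had 83.8, 97.8, 82.4 and 98.1 TPM upon *S. indica* lipid treatment, against 29.0, 44.8 and 22.9 TPM in the solvent control (log2FC 1.51, SE 0.178, adjusted *p* = 0.000883) and HORVU.MOREX.r3.1HG0017420.1 a log2FC of 1.33; HORVU.MOREX.r3.5HG0492530.1 (log2FC 1.08) was lost without *S. indica* lipid replicate 4 or solvent control replicate 2 (log2FC 0.96 to 0.98, adjusted *p* up to 0.0325). Alcohol dehydrogenases and hypoxia proteins had 3 rises in 33 (9.09%), and each depended on lipid replicates 2 and 3, the highest libraries. HORVU.MOREX.r3.1HG0082960.1 had 66.3, 136, 116 and 73.2 TPM upon *S. indica* lipid treatment, against 32.5, 44.1 and 33.3 TPM in the solvent control (log2FC 1.34, SE 0.307, adjusted *p* = 0.0348), lost without *S. indica* lipid replicates 2 or 3 or any of the 3 solvent control libraries (log2FC 1.17 to 1.48, adjusted *p* up to 0.131), and HORVU.MOREX.r3.4HG0345740.1 had 241, 326, 386 and 278 TPM upon lipid treatment and 145, 148 and 154 TPM in the solvent control (log2FC 1.02, SE 0.174, adjusted *p* = 0.00761), lost without *S. indica* lipid replicates 2 or 3 or solvent control replicate 1 (log2FC 0.90 to 1.00, adjusted *p* up to 0.038). Without lipid replicate 2, or without lipid replicate 3, 0 of the class were called. Thioredoxins and glutaredoxins had 0 of 75 called by limma (6 higher and 6 lower at an unadjusted *p* under 0.05).

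Transport genes rose in 5 families besides the ABC transporters. Purine permeases, which carry nucleobases and, in some plants, cytokinins or alkaloids, had 4 rises in 11, all in 1 stretch of chromosome 4H. HORVU.MOREX.r3.4HG0406420.1 had 31.4, 28.3, 34.6 and 49.7 TPM upon *S. indica* lipid treatment, against 3.64, 4.51 and 5.75 TPM in the solvent control (log2FC 2.70, SE 0.188, adjusted *p* = 5.14e-05), HORVU.MOREX.r3.4HG0406450.1 had 24.9, 28.2, 32.7 and 40.4 TPM upon lipid treatment and 5.32, 9.11 and 6.97 TPM in the solvent control (log2FC 2.00, SE 0.181, adjusted *p* = 0.000187), and HORVU.MOREX.r3.4HG0406390.1 a log2FC of 1.29. The remaining call, HORVU.MOREX.r3.4HG0406410.1, was lost without *S. indica* lipid replicates 3 or 4 or solvent control replicates 2 or 3 (log2FC 1.03 to 1.17, adjusted *p* up to 0.0989). With the adjusted *p* alone 4 purine permeases were higher and 1 lower, HORVU.MOREX.r3.5HG0487950.1 (log2FC −0.745, SE 0.102, adjusted *p* = 0.00216, limma). Peptide transporters had 4 rises in 27 (14.8%), a count that held in all 7 fits. HORVU.MOREX.r3.6HG0606350.1 had 3.73, 6.13, 6.91 and 9.73 TPM upon lipid treatment and 0.648, 1.87 and 1.31 TPM in the solvent control (log2FC 1.72, SE 0.263, adjusted *p* = 0.00399) and HORVU.MOREX.r3.6HG0606430.1 had 2.44, 2.82, 3.72 and 4.08 TPM upon lipid treatment and 0.446, 0.643 and 0.224 TPM in the solvent control (log2FC 1.56, SE 0.173, adjusted *p* = 0.000619). Of 52 nitrate, phosphate, sulfate and ammonium transporters 3 rose (5.77%). The high affinity nitrate transporter HORVU.MOREX.r3.6HG0543380.1 had 21.2, 15.2, 17.0 and 12.5 TPM upon *S. indica* lipid treatment, against 8.24, 4.62 and 6.57 TPM in the solvent control (log2FC 1.23, SE 0.202, adjusted *p* = 0.00615), whereas the most abundant transcript of that description, HORVU.MOREX.r3.6HG0591170.1, had 483, 503, 505 and 403 TPM upon lipid treatment and 548, 361 and 435 TPM in the solvent control, with overlapping groups (named after its values were seen). A nitrate transporter 1.2 (HORVU.MOREX.r3.2HG0177990.1, log2FC 1.09) was under the limit without solvent control replicate 1 (log2FC 0.95, adjusted *p* = 0.0242), and a phosphate transporter (HORVU.MOREX.r3.5HG0523050.1, log2FC 1.09) without *S. indica* lipid replicate 4 or solvent control replicate 1 (log2FC 0.91 to 0.99, adjusted *p* up to 0.0146).

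Heavy metal transport and detoxification proteins had 5 rises in 91 (5.49%). HORVU.MOREX.r3.2HG0208670.1 had 10.7, 11.4, 15.9 and 14.9 TPM upon lipid treatment and 2.82, 5.54 and 2.94 TPM in the solvent control (log2FC 1.60, SE 0.215, adjusted *p* = 0.00184). Of a pair described as PLANT CADMIUM RESISTANCE 2, HORVU.MOREX.r3.5HG0528610.1 had 80.7, 85.3, 118 and 131 TPM upon *S. indica* lipid treatment, against 43.4, 33.7 and 35.1 TPM in the solvent control (log2FC 1.43, SE 0.169, adjusted *p* = 0.000885), and HORVU.MOREX.r3.4HG0413220.1 (log2FC 1.57) was lost without *S. indica* lipid replicate 4 or solvent control replicates 1 or 3 (log2FC 1.36 to 1.64, adjusted *p* up to 0.116). The count was 3 without lipid replicate 4 and without solvent control replicate 1 or 3. Sugar and polyol transporters had 2 rises in 62 (3.23%), the polyol transporter HORVU.MOREX.r3.2HG0131170.1, with 125, 123, 131 and 174 TPM upon lipid treatment and 49.6, 78.0 and 55.0 TPM in the solvent control (log2FC 1.18, SE 0.163, adjusted *p* = 0.00216), and HORVU.MOREX.r3.4HG0399620.1 (log2FC 1.02), lost without *S. indica* lipid replicate 4 or solvent control replicates 1 or 3 (log2FC 0.84 to 0.97, adjusted *p* up to 0.0534). Amino acid transporters had 0 of 50 called by limma (9 higher and 4 lower at an unadjusted *p* under 0.05). Aquaporins, the water channels, lay on the lower side: 0 of 26 were called, 4 were lower and 0 higher with the adjusted *p* alone, where 0.586% of all transcripts were lower, and the class summed to a mean of 4156 TPM upon lipid treatment and 5349 TPM in the solvent control. The most abundant, HORVU.MOREX.r3.4HG0407580.1, had 1860.5, 2159, 2219 and 2102 TPM upon *S. indica* lipid treatment, against 2862, 2550.4 and 3150.0 TPM in the solvent control (log2FC −0.45, SE 0.109, adjusted *p* = 0.0454), with every lipid library below every control.

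Few cell wall genes were called. Hydroxyproline-rich and arabinogalactan proteins had 4 rises in 109 (3.67%), of which HORVU.MOREX.r3.3HG0300120.1 had 38, 46.7, 55.4 and 46.5 TPM upon lipid treatment and 19.9, 20.4 and 23.4 TPM in the solvent control (log2FC 1.09, SE 0.147, adjusted *p* = 0.0019). HORVU.MOREX.r3.1HG0082740.1 (log2FC 1.23), described as of the late embryogenesis abundant hydroxyproline-rich glycoprotein family, was not called without solvent control replicate 1 (log2FC 1.16, adjusted *p* = 0.0533). HORVU.MOREX.r3.5HG0521560.2 (log2FC 1.11), described as a prolyl 4-hydroxylase and so an enzyme that modifies such proteins, was under the limit without solvent control replicate 1 (log2FC 0.96, adjusted *p* = 0.0114). The class goes by words alone, so its members need not all be wall proteins. The pectinesterase HORVU.MOREX.r3.1HG0050650.1, which removes methyl groups from pectin, had 105, 132, 120.3 and 121 TPM upon *S. indica* lipid treatment, against 47.1, 55.9 and 43.6 TPM in the solvent control (log2FC 1.28, SE 0.104, adjusted *p* = 0.000122), the 1 call in 48 pectin transcripts. Expansins, which loosen walls, had 1 fall in 35. Xyloglucan enzymes (0 of 30 called by limma, 0 higher and 3 lower at an unadjusted *p* under 0.05) and cellulose synthases (0 of 31, 2 higher and 2 lower) had no call, and the most abundant cellulose synthase, HORVU.MOREX.r3.3HG0245440.1, had 154, 188, 189 and 185 TPM upon lipid treatment and 236, 214 and 237 TPM in the solvent control (log2FC −0.35, SE 0.0929, adjusted *p* = 0.0667).

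In most growth and housekeeping classes, limma called no transcript: 0 of 151 histones (4 higher and 6 lower at an unadjusted *p* under 0.05), 0 of 54 cyclins (1 higher and 2 lower), 0 of 49 tubulins and actins (0 higher and 4 lower) and 0 of 36 ribosomal proteins (1 higher and 0 lower). It also called 0 of 222 heat shock and chaperone proteins and 0 of 147 pentatricopeptide repeat proteins, which edit and process organelle RNA. Transposon-related proteins had 1 fall in 119 (0.84%), given with the other falls below. At the unadjusted *p*, 25 heat shock and chaperone transcripts were lower and 10 higher (median −0.08), and 16 pentatricopeptide repeat transcripts were lower and 1 higher (median −0.12). Ribosomal proteins had a median of −0.21, against −0.045 over all transcripts. The most abundant histone transcript, HORVU.MOREX.r3.2HG0138280.1, had 2089.8, 2403, 2686 and 2289 TPM upon lipid treatment and 2321, 2343 and 2435 TPM in the solvent control (log2FC −0.01, SE 0.101, adjusted *p* = 0.988), and the most abundant actin, HORVU.MOREX.r3.3HG0299830.1, had a log2FC of 0.02.

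**Figure D4:**
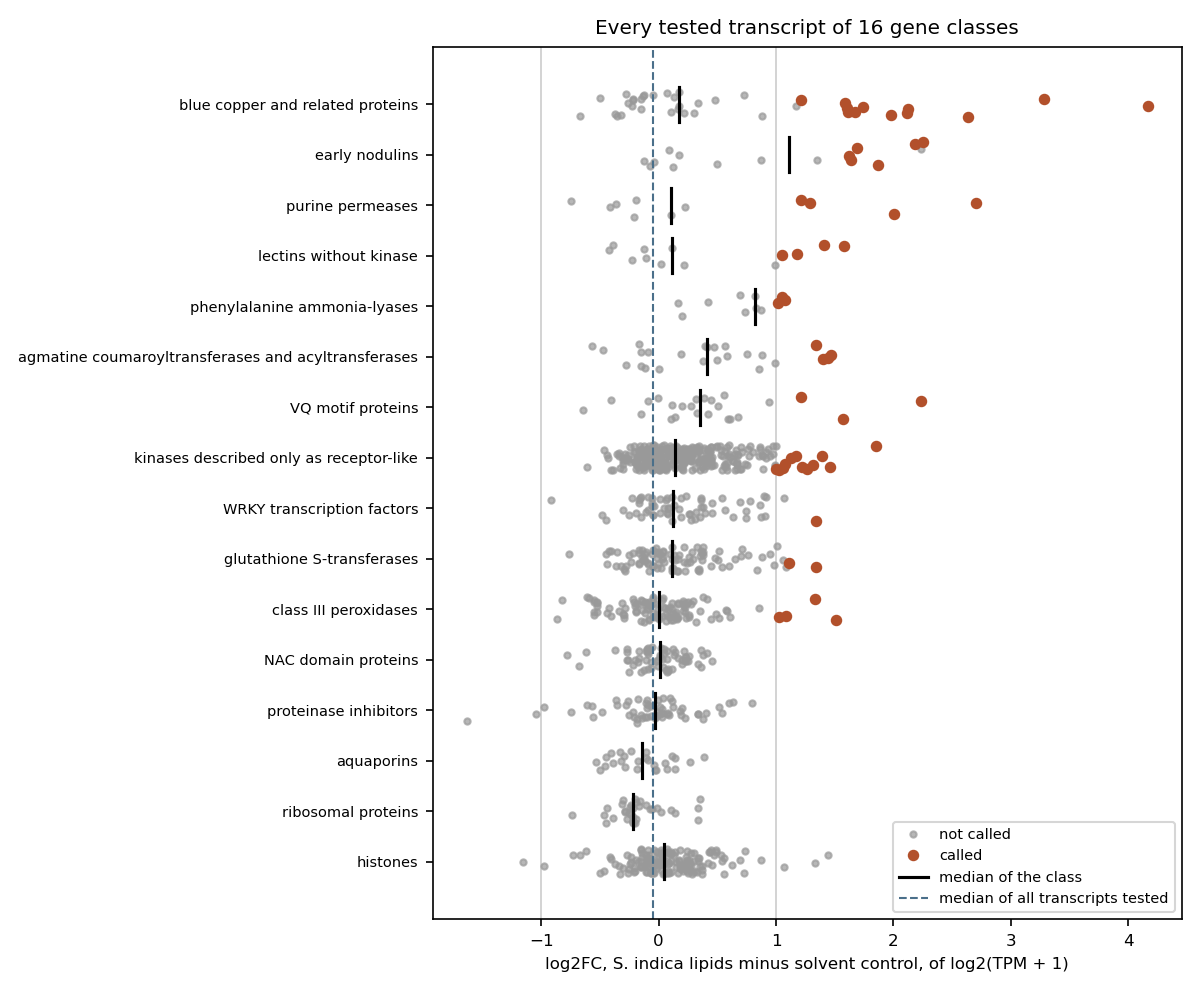
log2FC (S. indica lipids minus solvent control, of log2(TPM + 1)) of every tested transcript in 16 gene classes; filled points are called, grey points are not, the black bar is the class median and the dashed line the median of all 18424 transcripts. Phenylalanine ammonia-lyases and early nodulins are shifted as classes, with medians of 0.82 and 1.11, while the called purine permeases stand apart from the other members and no aquaporin, ribosomal protein or histone is called.

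The 18 falls held 3 ring-type ubiquitin ligases and otherwise single members of families, and most were of low abundance: 12 had a solvent control mean under 10 TPM and 7 were listed at 0 in at least 1 lipid library. The most abundant were the LOB domain transcription factor HORVU.MOREX.r3.3HG0233680.1, of a plant family that acts in organ and lateral root formation, with 20.9, 40.2, 30.8 and 23.6 TPM upon *S. indica* lipid treatment, against 61.3, 65.2 and 56.4 TPM in the solvent control (log2FC −1.09, SE 0.193, adjusted *p* = 0.00896), and the cysteine protease HORVU.MOREX.r3.5HG0511140.1, with 22.9, 22.8, 21.9 and 30.5 TPM upon lipid treatment and 48.8, 59.1 and 42.7 TPM in the solvent control (log2FC −1.0, SE 0.143, adjusted *p* = 0.00269). The LOB transcript was not called without *S. indica* lipid replicate 1 (log2FC −0.96, adjusted *p* = 0.0176), and the protease, at the limit, was lost without *S. indica* lipid replicates 1, 2 or 3 or solvent control replicate 2 (log2FC −0.98 to −0.88, adjusted *p* up to 0.0101). The RING/U-box transcript HORVU.MOREX.r3.6HG0560760.1 had the lowest log2FC, with 0, 0, 2.58 and 0 TPM upon lipid treatment, against 4.89, 24.5 and 4.92 TPM in the solvent control (log2FC −2.81, SE 0.562, adjusted *p* = 0.018); it was lost without *S. indica* lipid replicates 2 or 4 (log2FC −2.65 in each, adjusted *p* up to 0.052). Listed at 0 in all 4 lipid libraries were a transposase (HORVU.MOREX.r3.5HG0537240.1, 3.15, 3.60 and 1.60 TPM in the solvent control) and a valine-tRNA ligase (HORVU.MOREX.r3.4HG0347960.1, 1.58, 5.90 and 4.8 TPM), for which no fold is given. The F-box transcript HORVU.MOREX.r3.2HG0108370.1 had 0.863, 0, 0 and 0 TPM upon lipid treatment and 2.00, 7.51 and 3.48 TPM in the solvent control (adjusted *p* = 0.00642, limma). The control values of these low transcripts also differed widely.

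Falls that held in every fit without 1 library were 5: the transposase, the valine-tRNA ligase, the F-box transcript, the GMP synthase HORVU.MOREX.r3.6HG0569520.1 and the expansin HORVU.MOREX.r3.1HG0071050.1. All of these except GMP synthase had a lipid mean under 1 TPM. They passed the minimum of 1 TPM only through the solvent control libraries. The same set of transcripts was used in every fit, so keeping the call there adds no separate support. GMP synthase, an enzyme of guanine nucleotide synthesis, had 3.62, 4.90, 4.33 and 6.71 TPM upon *S. indica* lipid treatment, against 11.5, 12.5 and 10.8 TPM in the solvent control (log2FC −1.12, SE 0.162, adjusted *p* = 0.00303), and the expansin had 0.824, 0.861, 1.37 and 0.699 TPM upon lipid treatment and 2.60, 4.69 and 3.13 TPM in the solvent control (log2FC −1.19, SE 0.199, adjusted *p* = 0.00655). In both, every lipid library lay below every control. The calcineurin B-like calcium sensor HORVU.MOREX.r3.1HG0065890.1 had 1.98, 0.898, 0.571 and 1.81 TPM upon lipid treatment and 3.81, 5.02 and 3.30 TPM in the solvent control (log2FC −1.16, SE 0.242, adjusted *p* = 0.0221) and was lost without *S. indica* lipid replicates 2 or 3 or solvent control replicates 1 or 2 (log2FC −1.19 to −0.99, adjusted *p* up to 0.0839). The MYB factor HORVU.MOREX.r3.4HG0332940.1 had 5.06, 3.95, 2.06 and 3.16 TPM upon lipid treatment and 11.7, 11.2 and 8.19 TPM in the solvent control (log2FC −1.35, SE 0.269, adjusted *p* = 0.0178) and was lost without solvent control replicates 1 or 2 (log2FC −1.29 to −1.26, adjusted *p* up to 0.0814). A light-regulated protein, HORVU.MOREX.r3.3HG0231800.1, had 3.52, 6.97, 5.46 and 8.07 TPM upon *S. indica* lipid treatment, against 12.9, 17.7 and 16.7 TPM in the solvent control (log2FC −1.29, SE 0.243, adjusted *p* = 0.0125) and was not called without solvent control replicate 3 (log2FC −1.25, adjusted *p* = 0.0592). Of the other falls, HORVU.MOREX.r3.2HG0162350.1 (Flowering locus D, log2FC −1.46), HORVU.MOREX.r3.2HG0119580.1 (cold shock protein, −1.68), HORVU.MOREX.r3.5HG0461530.1 (described by a cDNA clone number, −2.15), HORVU.MOREX.r3.4HG0380570.1 (serine/threonine kinase, −1.17), HORVU.MOREX.r3.7HG0681260.1 (a manganese-dependent phosphatase, −1.08), HORVU.MOREX.r3.6HG0542110.1 (RING finger, −1.11) and HORVU.MOREX.r3.7HG0687790.1 (RING/U-box, −1.12) completed the list at low TPM. Each of these 7 lost its call in at least 1 such fit: the Flowering locus D transcript without any of the 3 solvent control libraries (log2FC −1.49 to −1.40, adjusted *p* up to 0.0646), the cold shock protein without solvent control replicate 2 (log2FC −1.49, adjusted *p* = 0.0521), the cDNA clone without *S. indica* lipid replicates 1 or 3 or solvent control replicates 1 or 2 (log2FC −2.31 to −1.69, adjusted *p* up to 0.135), the kinase without *S. indica* lipid replicates 1 or 3 or any of the 3 solvent control libraries (log2FC −1.29 to −0.95, adjusted *p* up to 0.117), the phosphatase without solvent control replicates 1 or 3 (log2FC −1.05 to −0.96, adjusted *p* up to 0.0616), the RING finger without *S. indica* lipid replicates 1, 2 or 4 or any of the 3 solvent control libraries (log2FC −1.19 to −0.90, adjusted *p* up to 0.158) and the RING/U-box without *S. indica* lipid replicate 3 or solvent control replicates 1 or 3 (log2FC −1.06 to −0.93, adjusted *p* up to 0.0989).

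**Figure D5:**
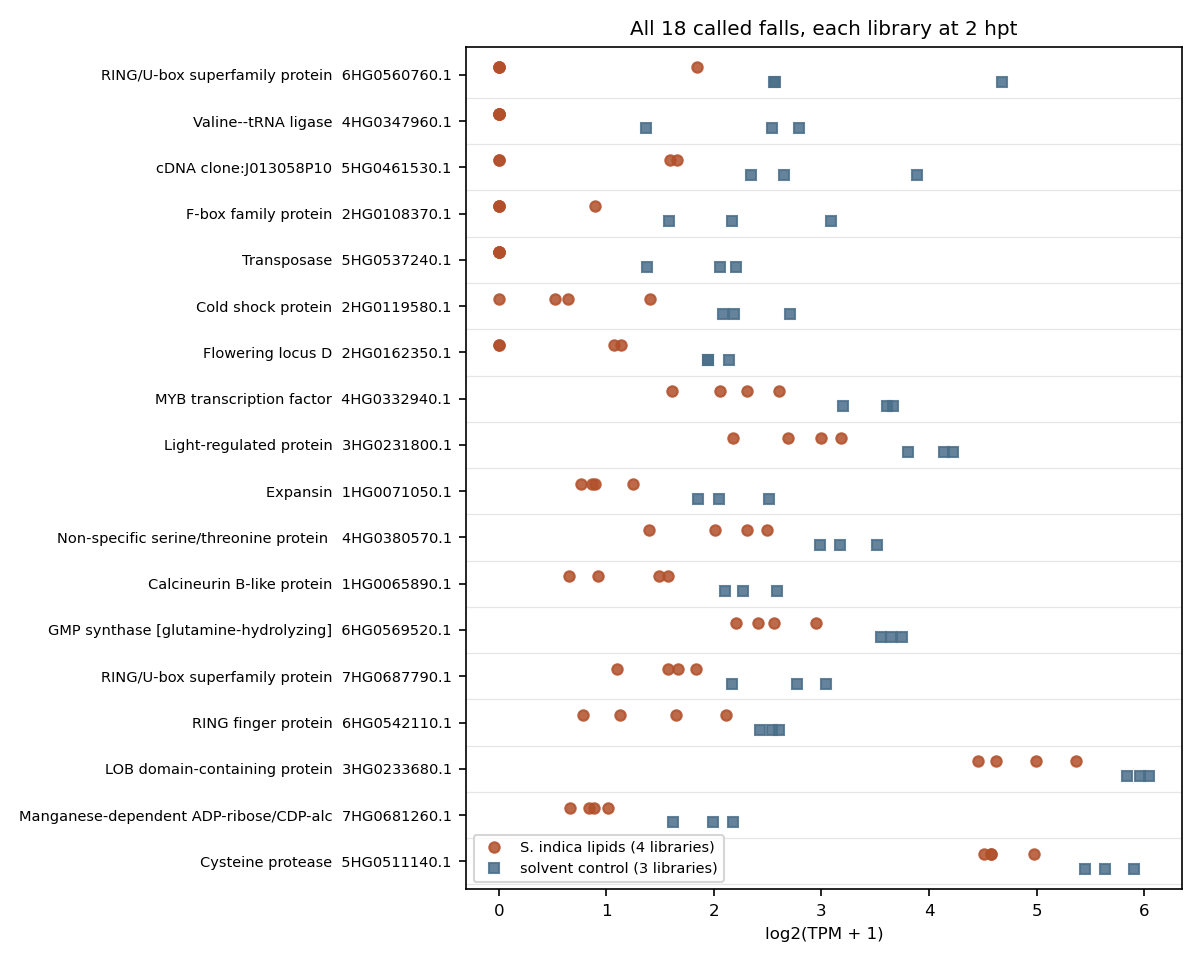
log2(TPM + 1) of the 18 called falls, 1 row per transcript ordered by log2FC from the lowest at the top; circles are the 4 S. indica lipid libraries and squares the 3 solvent control libraries. In every row the circles lie to the left of all squares, several at 0, and the 2 most abundant falls are the LOB domain transcript and the cysteine protease.

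Part of the rises lay side by side in the genome. MorexV3 loci are numbered along each chromosome, and 34 called transcripts, all of them rises, fell into 11 runs of loci with the same description whose numbers lay within 100 of each other. The longest was a run of 6 blue copper proteins on chromosome 2H, from HORVU.MOREX.r3.2HG0213070.1 to HORVU.MOREX.r3.2HG0213140.1, in which all 6 tested transcripts of that description rose, with log2FC of 1.68 to 4.17. A second blue copper run on chromosome 4H, from HORVU.MOREX.r3.4HG0401170.1 to HORVU.MOREX.r3.4HG0401210.1, held 4 calls among 5 tested (1.21 to 1.98). On chromosome 7H, 5 of 7 tested early nodulin 93 transcripts between HORVU.MOREX.r3.7HG0649480.1 and HORVU.MOREX.r3.7HG0649570.1 rose (1.62 to 2.25), and on chromosome 4H all 4 purine permeases between HORVU.MOREX.r3.4HG0406390.1 and HORVU.MOREX.r3.4HG0406450.1 (1.22 to 2.70). The other runs were 3 dirigent proteins and pairs of alternative oxidases, ascorbate oxidases, 12-oxophytodienoate reductases, peptide transporters, agmatine coumaroyltransferases and lectins. Between the paired peptide transporters lies another called one, HORVU.MOREX.r3.6HG0606350.1. It is also described as a major facilitator superfamily protein, and runs needed an identical full description, so it was not counted in the run. Near-identical copies can share reads, which the estimation of abundance divides among them, so the value of a single copy in a run is less certain than the sum. By chromosome, the share called lay between 0.804% (1H) and 1.45% (2H).

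Only 8 of the 231 called loci have several transcripts in the table, and in 3 of them the transcript was called but the locus sum was not (named after their values were seen). The G-patch protein transcript HORVU.MOREX.r3.5HG0471120.3 had 12, 4.85, 9.10 and 5.51 TPM upon *S. indica* lipid treatment, against 0.0342, 0.235 and 2.99e-05 TPM in the solvent control (log2FC 2.95, SE 0.360, adjusted *p* = 0.00108). Its locus, however, summed to 95.1, 87.0, 75.2 and 76.6 TPM upon lipid treatment and 77.5, 90.3 and 81.4 TPM in the solvent control, with a log2FC of 0.00 (adjusted *p* = 0.992, limma on TPM summed per locus). A peptide transporter transcript, HORVU.MOREX.r3.6HG0547800.1, had 8.95, 9.70, 7.02 and 11.6 TPM upon lipid treatment and 2.13, 3.46 and 3.33 TPM in the solvent control (log2FC 1.38, SE 0.190, adjusted *p* = 0.00216), against a log2FC of 0.61 (adjusted *p* = 0.00326) for its locus. An enoyl-CoA hydratase 2 transcript, HORVU.MOREX.r3.5HG0502000.1, of a family of fatty acid oxidation enzymes, had 54.7, 56.7, 45.5 and 47.1 TPM upon lipid treatment and 21.8, 24.3 and 18.4 TPM in the solvent control (log2FC 1.21, SE 0.130, adjusted *p* = 0.000543), against a log2FC of 0.37 (adjusted *p* = 0.0191) for its locus. With TPM summed per locus, 228 of the 231 loci were called.

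The ergosterol libraries share the solvent control with this comparison, so both responses are set side by side only for single transcripts, with the direct test of lipids against ergosterol. That test called 0 transcripts, and 979 of 18424 had an unadjusted *p* under 0.05 (limma); 1 passed the adjusted *p* without the fold limit. The G-patch transcript had 12, 4.85, 9.10 and 5.51 TPM upon lipids and 0.0276, 0.000408 and 1.55 TPM upon ergosterol, a difference in log2 of 2.61 (SE 0.360, adjusted *p* = 0.113, limma). The 1-pyrroline-5-carboxylate dehydrogenase, given above for lipids, had 4.93, 5.29 and 5.35 TPM upon ergosterol (difference 1.13, SE 0.240, adjusted *p* = 0.489). The LOB domain transcript, which fell upon lipids, had 49.9, 62.1 and 46.6 TPM upon ergosterol (difference −0.88, SE 0.193, adjusted *p* = 0.545), and the cysteine protease 50.1, 42.0 and 40.4 TPM (difference −0.83, SE 0.143, adjusted *p* = 0.318). These 4 were named after their values were seen, and none passed the test.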

How the data were processed

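RNA-Seq was measured in 10 barley root libraries, and the 7 of *S. indica* lipid (n = 4) and solvent control (n = 3) roots were compared. Per the labels, poly(A) RNA was made into strand-specific libraries and sequenced as paired ends. The submitters' processing notes name Trimmomatic 0.39, FastQC, kallisto 0.46.1 and sleuth, and the identifiers are those of the MorexV3 annotation. The deposited TPM are relative abundances (a signal that keeps no read totals), which sum to 1000000 in each library once each of the 37962 transcripts is taken once; 5420 of 43382 lines were repeats. The depth is therefore unknown, no counting error can be given, and precision rests on the spread between libraries. The authors also deposited log2 fold changes and q-values of their own comparisons, which were not used.

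The minimum of 1 TPM on the average of these libraries left 18424 transcripts. log2(TPM + 1) values of all 10 libraries were fitted in 1 model with limma 3.58.1 (R 4.3.3; moderated test, variance trend, two-sided), and the lipid minus solvent control contrast was adjusted by Benjamini-Hochberg over all 18424. The pseudocount of 1 understates the fold of low transcripts. Calls needed an adjusted *p* of at most 0.05 and an absolute log2FC of at least 1. Because of the minimum, a low transcript can pass the minimum only through the group where it is high. Classes were word patterns in the description column, and a transcript can fall into more than 1. Members and lists were chosen with earlier results of these data known, so their counts are descriptions beside the share of all transcripts called. Transcripts were named by a fixed rule (the 10 largest rises outside the MEP, MVA and diterpene genes, the 5 most abundant rises, all falls and, in each class, the up to 3 called members with the largest change or, with none called, the most abundant member), with exceptions stated. The procedure was tested on simulated data. Same-numbered lipid and control libraries deviated with *r* of −0.08, 0.05 and 0.19 across transcripts, and the labels give no meaning to the numbers. The numbers were therefore not used as a block in the main fit. Alternatives covered scaling, pseudocount, minimum, variance model, locus sums, a replicate block and leaving out each library. Figures used Python 3.11.15 and matplotlib 3.10.9. Positions and sequences are not used here.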

Additional observations from a re-analysis of the deposited data

Results flagged for a closer look

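Among the 137 named called transcripts, 9 had 1 lipid library far from the other 3 by Dixon's test (gap to the nearest library over the range of the group). Chance alone flags about 1 in 20 groups. Lipid replicate 4 was the far, higher library in 5 of the 9. It had 50.0 TPM of the leucine-rich repeat receptor kinase HORVU.MOREX.r3.3HG0318390.1, with the others at 30.2 to 31.9, 18.7 TPM of the lectin receptor kinase HORVU.MOREX.r3.7HG0648480.1, with the others at 12.9 to 13.8, and 45.4 TPM of the VQ motif transcript HORVU.MOREX.r3.7HG0708960.1, with the others at 27.7 to 28.8. It also had 174 TPM of the polyol transporter HORVU.MOREX.r3.2HG0131170.1, with the others at 123 to 131, and 30.5 TPM of the cysteine protease HORVU.MOREX.r3.5HG0511140.1, with the others at 21.9 to 22.9.

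Lipid replicate 3 had 42.0 TPM of HOX19 (HORVU.MOREX.r3.1HG0069120.1), with the others at 20.6 to 22.8, and 2.58 TPM of the RING/U-box transcript HORVU.MOREX.r3.6HG0560760.1, with the others listed at 0. Lipid replicate 1 had 0.863 TPM of the F-box transcript HORVU.MOREX.r3.2HG0108370.1, with the others listed at 0, and 16.8 TPM of the U-box transcript HORVU.MOREX.r3.2HG0167350.1, below the others at 21.2 to 21.6.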

How the results depend on the processing

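The 137 called transcripts named by the rule kept their direction in every alternative in which they were tested; between 0 and 36 of them lost the call in any single alternative. The counts of 231 calls, 213 rises and 18 falls moved by less than 1.5 times under other scaling, pseudocounts, minimums, variance models and locus sums, with 171 to 284 calls, except as follows. Without the fold limit 709 transcripts passed, 601 higher and 108 lower. Array weights gave 28 falls and a minimum of 5 TPM gave 7, with fewer low transcripts tested. Leaving out 1 library gave 194 to 279 calls, 179 to 258 rises and 12 to 24 falls, with the lowest total without solvent control replicate 1 and the highest without solvent control replicate 2. Median-ratio scaling called 244, 228 of them among the 231, and quantile normalization 235, with 226. The median log2FC of all transcripts was −0.045 on TPM and −0.018 after median-ratio scaling. Without an abundance minimum 200 of the 231 were also called, and with a pseudocount of 0.1 225.

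With the replicate number as a block, limma called 186 transcripts, 171 higher and 15 lower, and 165 of the 231 were among them. The labels give no meaning to the numbers, lipid replicate 4 has no control of that number, and same-numbered lipid and control libraries deviated with *r* of −0.08, 0.05 and 0.19 across transcripts. Among the controls, lipid replicate 1 correlated best with control 2 and lipid replicate 2 with control 3, whereas lipid replicate 3 correlated best with control 3, its own number.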

Other observations

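Some gene groups outside the listed classes were noticed among the calls, and their word patterns were chosen after the values were seen, so their counts are descriptions only, beside 1.25% of all transcripts called. Of 576 protein kinases described without a receptor, 13 rose and 1 fell (2.43%). Purple acid phosphatases, which release phosphate from organic compounds, had 2 rises in 23. HORVU.MOREX.r3.5HG0499000.1 had 24.5, 18.2, 17.4 and 21.0 TPM upon lipid treatment and 4.58, 10.9 and 5.91 TPM in the solvent control (log2FC 1.45, SE 0.237, adjusted *p* = 0.00582, limma), and its neighbour HORVU.MOREX.r3.5HG0499010.1, described as inactive, a log2FC of 1.16; 1 was left without solvent control replicate 3. Pirin-like proteins had 2 rises in 5, led by HORVU.MOREX.r3.5HG0533210.1 with 23.0, 20.4, 25.2 and 28.1 TPM upon lipid treatment and 4.43, 7.93 and 6.12 TPM in the solvent control (log2FC 1.83, SE 0.177, adjusted *p* = 0.000273), and 1 was left without lipid replicate 4. Of 15 disulfide-forming proteins of the secretory pathway 2 rose, a number that held when any library was left out.

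Glycolysis and sucrose cleavage enzymes had 4 rises in 64 (6.25%), and 2 without solvent control replicate 3. Fermentation and low-oxygen proteins had 4 rises in 47 (8.51%), and 1 was left without lipid replicate 2 or without lipid replicate 3, the libraries in which the alcohol dehydrogenases were highest. Over all 213 rises, lipid replicate 4 was the highest lipid library in 127 and the lowest in 7, whereas it was the highest in 20.8% of all transcripts tested. Solvent control replicate 2 was the highest control in 127 of the 213 rises and in 49.1% of all transcripts tested.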
